A study of Mus musculus with 7 samples.

Results

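Adhesion genes were examined in haematopoietic stem cells (HSCs), the cells of the bone marrow from which all blood cells arise. The set holds 35 genes: 22 integrin chains (the platelet chains Itga2b and Itgb3 are not among them), the hyaluronan receptor gene Cd44, the integrin-associated protein gene Cd47, the selectin ligand gene Selplg, 4 adhesion genes of the immunoglobulin superfamily, 3 junctional adhesion molecule (JAM family) genes and 3 classical cadherins. Members were matched by symbol, and all 35 had a row among the 23038 genes of the deposited table.

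The authors sequenced RNA of 7 libraries, each from 150 cells of adult C57BL/6 hindlimb marrow, with Smart-seq2, which amplifies whole transcripts from few cells. The sort kept Lineage- Sca1+ cKit+ CD150+ CD48- cells. The 3 control libraries came from Cre-negative littermates and the 4 mutant libraries from Mx1-cre; Mettl3 fl/fl animals, in which both Mettl3 alleles are flanked by loxP sites; the labels do not say which Mettl3 alleles the controls carried. Animals of both groups had 5 doses of 10 µg pIpC, 1 every other day; it mimics viral RNA and, through interferon, switches on the Mx1 promoter. The last dose preceded the harvest by 10 days. The Mx1 promoter responds to interferon in many cell types, so deletion is not limited to HSCs. METTL3 is the methyltransferase that makes N6-methyladenosine (m6A) in mRNA.

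Integrins are receptors built from 1 α and 1 β chain that bind matrix proteins or counter-receptors on other cells. Stem cells in marrow use α4β1, α5β1 and α6β1 to bind VCAM1, fibronectin and laminin of the niche, and leukocytes use the β2 and β7 receptors to bind ICAM and MAdCAM proteins on endothelium. Selectin ligands such as PSGL-1, the product of Selplg, mediate rolling on vessel walls, and JAM proteins and PECAM1 act where cells touch one another.

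The values are the authors' means over the libraries of each group in RPKM (reads scaled to gene length in kilobases and to library size), 1 value per gene and group. A spread between libraries was not available from group means, so the differences below have no replicate check and no p-value, and "higher" or "lower" refers to the means alone. Differences are log2((mutant + 1) / (control + 1)); the added 1 RPKM shrinks differences of low genes. Folds are ratios of the deposited means, which for very low genes also hold an offset equal to about 1 added read per library. Mettl3 itself was at 49.8 RPKM in controls and 9.60 in mutants. All 10 HSC markers examined had reads. For 6 of them the mean of mutants lay below that of controls and for 4 above it, with a median difference of -0.19. Slamf1, which encodes CD150, was at 25.9 and 27.1 RPKM in controls and mutants, whereas Kit was at 67.4 and 39.9 RPKM. Cd48, the marker used for exclusion, was at 5.33 and 4.04 RPKM. The steps between the lowest values gave library sizes of 19.6 to 31.1 M reads (M, mega) in controls and 25.7 to 37.7 M in mutants. In bulk samples of sorted cells, fewer cells that express a gene and less RNA per cell cannot be told apart.

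The bases just before the transcription start are shown for both chains of the fibronectin receptor α5β1, which were higher in the mutant mean, for Itgb5, the integrin chain farthest apart on the pseudocount scale, and for Itgb7, the 1 lower chain among the integrins over 10 RPKM. They run 5′ to 3′ for 250 bases up to the start, are taken from RefSeq on GRCm38.p6, and have the GC box (GGGCGG on either strand, the binding motif of Sp1 proteins) in capitals.
Itga5, chr15:103366792-103367041, minus strand: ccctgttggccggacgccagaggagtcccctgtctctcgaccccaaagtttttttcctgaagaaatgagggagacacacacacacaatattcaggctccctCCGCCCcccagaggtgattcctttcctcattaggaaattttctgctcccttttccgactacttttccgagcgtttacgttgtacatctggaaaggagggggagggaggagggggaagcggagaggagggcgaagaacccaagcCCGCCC
Itgb1, chr8:128685404-128685653, plus strand: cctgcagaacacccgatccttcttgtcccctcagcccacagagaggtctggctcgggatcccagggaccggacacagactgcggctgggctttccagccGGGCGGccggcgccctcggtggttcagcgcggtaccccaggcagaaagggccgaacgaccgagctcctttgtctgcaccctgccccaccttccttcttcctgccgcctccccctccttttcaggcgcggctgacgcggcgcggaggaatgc
Itgb5, chr16:33829415-33829664, plus strand: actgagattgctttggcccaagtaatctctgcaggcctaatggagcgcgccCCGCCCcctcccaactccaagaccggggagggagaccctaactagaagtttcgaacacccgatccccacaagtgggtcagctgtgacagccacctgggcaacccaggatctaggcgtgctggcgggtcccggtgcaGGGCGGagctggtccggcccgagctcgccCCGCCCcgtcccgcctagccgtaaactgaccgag
Itgb7, chr15:102231936-102232185, minus strand: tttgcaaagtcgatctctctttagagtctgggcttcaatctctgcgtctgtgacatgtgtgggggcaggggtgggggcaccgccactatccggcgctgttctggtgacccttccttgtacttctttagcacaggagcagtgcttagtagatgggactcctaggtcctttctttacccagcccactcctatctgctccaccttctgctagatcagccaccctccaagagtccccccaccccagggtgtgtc
The GC box occurred 2 times upstream of Itga5, 1 time upstream of Itgb1 and 3 times upstream of Itgb5, and it was not found in this window of Itgb7. The start that RefSeq's table uses for Itgb7 lies inside the annotated gene (chr15:102215994-102233405), so its window is upstream of an inner start, and which start HSCs use was not tested. The stretches of Itgb1 and Itgb5 were the richer in G and C, at 68.0% and 65.2%, against 55.6% for Itga5 and 56.0% for Itgb7. Of the 20 members with a RefSeq promoter entry, 9 held a GC box in the 250 bases, and so did 32.9% of 27025 genes searched in the same way. An ETS core (GGAAG, both strands) was found in 14 of the 20 members and in 63.6% of all genes, and an AP-1 site (TGANTCA, both strands) in 2 members and in 6.87% of all genes. An E-box (CANNTG) was in 13 members and 66.0% of all genes, a RUNX core (TGTGGT, both strands) in 1 member and 14.2% of all genes, and a TATA box (TATAAA, both strands) in none of the members and 13.0% of all genes. Matches to an E-box and an ETS core can overlap.

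Since the enzyme lost in the mutant methylates adenosines, the pentamer GGACT, the commonest form of the m6A consensus, was also located. No m6A was measured in these libraries, so a match is only a stretch of letters. For each gene 1 GENCODE M21 transcript on GRCm38 was used, the RefSeq-linked one with the longest coding sequence. Which transcript HSCs use was not tested, and positions relative to the stop codon depend on it. For those of the chains above that hold one, the last GGACT with 18 coding bases on each side is shown. The motif is in capitals.
Itga5, exon 25 of 30, chr15:103349640-103349680, minus strand: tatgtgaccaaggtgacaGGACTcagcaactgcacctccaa
Itgb5, exon 15 of 15, chr16:33948786-33948826, plus strand: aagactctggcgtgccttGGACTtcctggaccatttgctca
Itgb7, exon 14 of 15, chr15:102216551-102216591, minus strand: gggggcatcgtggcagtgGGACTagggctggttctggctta
The Itgb5 motif ended 24 bases before the end of the coding sequence, the Itgb7 motif 205 and the Itga5 motif 553 bases before it. Itgb5 was also the member with the most copies near its stop codon, with 3 of its 7 within 200 bases of the end of the coding sequence. Itgb1 had 2 copies in its transcript and none in its coding part, and has no window here. All 26 members with reads had at least 1 GGACT in the transcript, as had 91.3% of 12208 genes with reads, and the median density was 1.18 per kilobase in members and 1.06 in all. A copy within 200 bases of the stop codon was present in 12 of the 26 (46.2%) and in 39.8% of all. Copies per kilobase differed between members: Itgb2 had 2.69, Itgae 2.60 and Itgb5 2.29, whereas Pecam1 had 0.291, Itgb1 0.524 and Selplg 0.539.

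Of the 35 members, 26 had reads in at least 1 group and 20 reached 1 RPKM in at least 1 group. The other 9, Itga1, Itga2, Itga7, Itga8, Itga10, Itgax, Itgb8, Cdh1 and Cdh2, were without reads in all 7 libraries, with deposited values of 0.00375 to 0.0103 RPKM that equal the offset. Between them these encode receptors for collagen and laminin (Itga1, Itga2, Itga7 and Itga10), the dendritic cell integrin CD11c (Itgax), the α8 and β8 chains and the cadherins of epithelium and nerve. A count of 0 allows up to 3 reads of each over the 7 libraries, by counting error alone. Among the genes with reads, the highest was Cd47, at 648 RPKM in controls and 563 in mutants, which placed it above 99.6% of all genes with reads in controls and 99.5% in mutants. Cd47 made up 55% of the summed control RPKM of the 35 members and 47.8% of the mutant sum. Icam2, F11r and Selplg followed, all between 74.6 and 150 RPKM in both groups, and Itgb1 was the highest integrin chain.

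**Figure D1:**
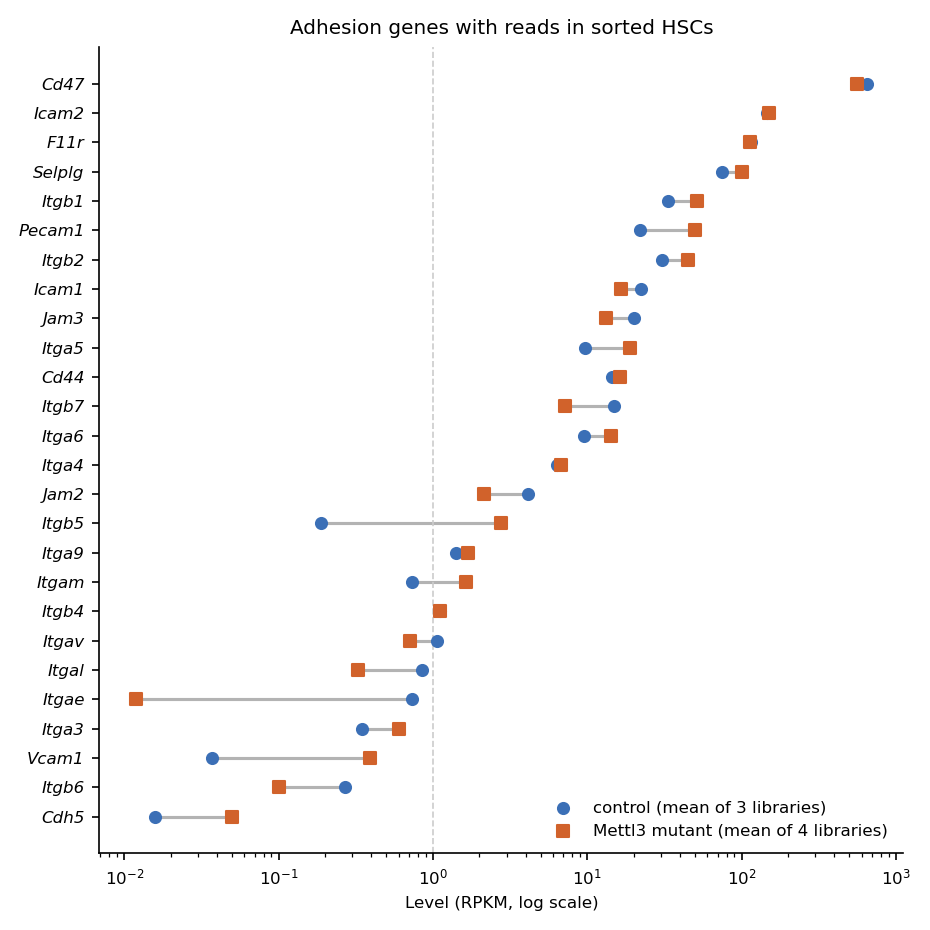
Level of the 26 members with reads in RPKM on a log axis, with circles for the control mean and squares for the mutant mean; the dashed line marks 1 RPKM. The values span from Itgae in mutants at 0.0119 RPKM to Cd47 in controls at 648 RPKM. The longest lines between groups are those of Itgae, Itgb5 and Vcam1, all below 3 RPKM.

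Of the 26 members with reads, 16 were higher in the mutant mean and 10 lower; over all genes with reads, 52.6% were higher. The median difference was 0.06 in members and 0.02 over all 14539 genes with reads. By the rule of a 2-fold difference on the pseudocount scale, 2 members were apart, Itgb5 and Pecam1, both higher in mutants, beside 7.14% of all genes with reads, 3.67% higher and 3.47% lower. Among genes with at least 1 RPKM in 1 group these were 2 of 20 members beside 8.96%. With at least 5 RPKM it was 1 of 14, beside 7.02%, and 9 of the 14 were higher, beside 52.7%. At 1.5-fold, 8 members were apart, 5 higher and 3 lower, beside 23.4% of all genes, 13% higher and 10.4% lower. At the 2-fold rule the share of members was close to that of all genes. Of the 15 integrin members with reads, 10 were higher and 5 lower, with a median of 0.15, and of the 11 that reached 1 RPKM, 9 were higher, counting Itgb4 at 0.00, beside 51.8% of all genes at that level. Of the 11 other members with reads, 6 were higher and 5 lower, with a median of 0.03. The 3 JAM family genes were lower, F11r by no more than -0.02. Differences between roles were not tested.

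**Figure D2:**
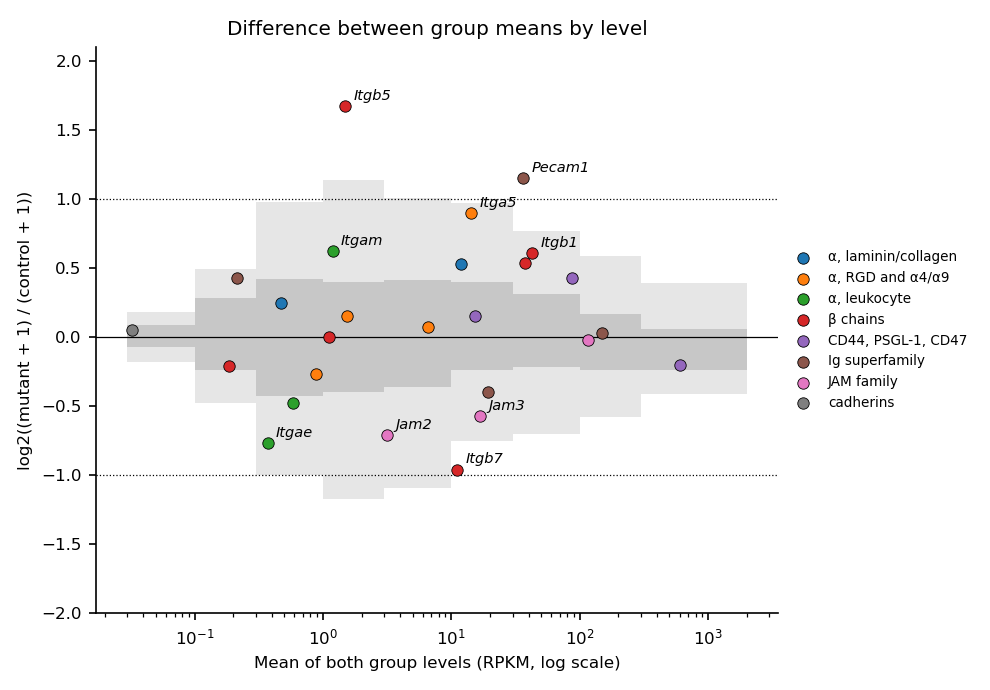
Difference between the group means, as log2((mutant + 1) / (control + 1)), against the mean level in RPKM on a log axis, with each member coloured by role. Dark and light bands hold the central 50% and 90% of all genes with reads at that level, and dotted lines mark 2-fold; Itgb5 at 1.67, Pecam1 at 1.15 and Itgb7 at -0.96 lie outside the light band.

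Among the 15 α chains of the set, those of the fibronectin and laminin receptors were highest. Itga2b, left out of the set, was above them at 19.7 RPKM in controls and 22.4 in mutants. Itga5, the fibronectin-binding chain, was at 9.70 RPKM in controls and 19.0 in mutants, 1.96-fold higher and a difference of 0.90. Its control level corresponded to about 1024 reads per library and its mutant level to about 2391, when the length of its GENCODE transcripts is used. A difference of that size or more, in either direction, was seen in 7.99% of the 6607 genes that reached 10 RPKM. Itga6, the laminin-binding chain CD49f, was at 9.55 and 14.2 RPKM in controls and mutants, 1.49-fold higher, and 25.7% of genes over 10 RPKM were as far apart. Itga4, the α chain of the VCAM1 receptor VLA-4, was almost level at 6.39 and 6.77 RPKM. The sum over the 15 α chains was 30.8 RPKM in controls and 45.0 in mutants. The share of Itga5 in this sum was 31.5% in controls and 42.3% in mutants, that of Itga6 31.0% and 31.6%, and that of Itga4 20.7% and 15%. Itga5 and Itga6 were thus nearly equal in controls, and Itga5 was first in mutants.

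The remaining α chains were low. Itga9, which pairs with β1 and binds VCAM1 and tenascin, was at 1.41 RPKM in controls and 1.68 in mutants. Itgav, the common partner of several β chains in RGD-binding receptors, was at 1.07 and 0.710 RPKM. Itgam, the α chain CD11b of the complement receptor of myeloid cells, was at 0.727 RPKM in controls and 1.65 in mutants. Itgal, the chain CD11a of the ICAM receptor LFA-1, went the other way at 0.849 and 0.329 RPKM. Neutrophil markers, 4 of 8 with reads, summed to 14.5 RPKM in controls and 5.78 in mutants, with 1 higher and 3 lower. Of the 11 macrophage and monocyte markers with reads, 9 were higher in mutants, as Itgam was, and 2 lower, beside 52.6% higher over all genes with reads. The 9 include Vcam1 and Ly6c2, which was level at 0.0517 and 0.0518 RPKM. Of the 4 markers that reached 1 RPKM, 2 were higher and 2 lower. The part of such cells in the Itgam value was not tested. Itga3, a laminin receptor chain, was at 0.349 and 0.600 RPKM. Itgae, the chain CD103 of the E-cadherin receptor on lymphocytes, was at 0.729 RPKM in controls and 0.0119 in mutants. The latter is close to the offset, about 0 reads per library on average, so no fold is given, and the reads could not be assigned to libraries. Markers of T and NK cells, which can carry CD103, were at 127 RPKM in sum in controls and 111 RPKM in mutants, most of it Nkg7 (124 and 62.3 RPKM) and, in mutants, Ccl5 (0.270 and 46.6 RPKM); 4 of the 10 had reads, and Cd3e, Cd3g and Cd8a had none. The part of such cells in the Itgae value was not tested.

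The β chains were higher than the α chains in sum, at 80.4 RPKM in controls and 108 in mutants. Itgb1, the β1 chain of most matrix receptors, was at 33.3 RPKM in controls and 51.5 in mutants, 1.55-fold higher. Itgb2, the β2 chain CD18 of the leukocyte integrins, was at 30.5 and 44.8 RPKM, 1.47-fold higher. Differences of that size were common, with 19.9% of genes over 10 RPKM as far apart as Itgb1 and 24.8% as far as Itgb2. Itgb7, the β7 chain of the gut-homing receptor α4β7 and of αEβ7, was the exception among the abundant chains, at 15 RPKM in controls and 7.22 in mutants. It was 2.08-fold lower by the deposited means and -0.96 on the pseudocount scale, just under the 2-fold rule, and 6.54% of genes over 10 RPKM were as far apart. Its share of β chain RPKM was 18.7% in controls and 6.71% in mutants. Itgb4, the partner of α6 in epithelial hemidesmosomes, was at 1.11 RPKM in both groups.

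Itgb5, the β5 chain of the vitronectin receptor αVβ5, was the member farthest apart on the pseudocount scale, at 0.188 RPKM in controls and 2.78 in mutants. The ratio of the means was 14.8, and the difference on the pseudocount scale was 1.67. By the ratio of the deposited means Itgae, near the offset in mutants, was farther apart. For this gene the deposited control mean could be resolved into whole reads at the annotated length of 3282 bases. It was given by 33 reads in the library of 19.6 M reads, 1 read in that of 24.3 M and 0 in that of 31.1 M, or 0.513, 0.0125 and 0 RPKM. The controls differed among themselves, and their mean rests mostly on 1 library, without which the other two lie at 0.0125 RPKM or below. At this length no whole reads of any 1 library or of any 2 libraries were found to give the mutant mean. That mean lies above the low values on which this reading was tested, and a solution could be missed. How many of the 4 mutant libraries held reads of Itgb5 was therefore not resolved. The libraries cannot be tied to individual animals. At the lengths tried, 0.0013 such solutions for the controls were expected by chance.

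Other low members were read by a search over lengths and not at annotated lengths alone. Vcam1, Itgb6 and Cdh5 were resolved, at 3398, 6248 and 3986 bases, and each had its reads in few libraries. Itgae gave no single solution. In simulated data this search was tested on genes with fewer reads than the highest counts of Vcam1 and Itgb6. Vcam1, the counter-receptor of α4β1 on stromal, endothelial and macrophage cells, was at 0.0372 RPKM in controls and 0.393 in mutants. The control value was 5 reads of the library of 19.6 M, and the mutant value was 140 reads of the library of 26.9 M, or 0.0751 and 1.53 RPKM in those libraries. Vcam1 therefore had no reads in 2 control and 3 mutant libraries. Itgb6, the epithelial β6 chain, was at 0.271 and 0.1 RPKM, which equalled 154 reads of the control library of 31.1 M and 89 reads of the mutant library of 37.7 M. This was the 1 solution found over all libraries, but its chance expectation was low only for solutions with 1 library in each group, so the Itgb6 reads are less certain than the others. Cdh5, the endothelial VE-cadherin, was at 0.0158 and 0.0497 RPKM. It had 2 reads in the control library of 31.1 M, and 7 and 12 reads in the mutant libraries of 37.7 and 25.7 M. The higher mutant means of Vcam1 and Cdh5 thus came from 1 and 2 of 4 libraries.

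**Figure D3:**
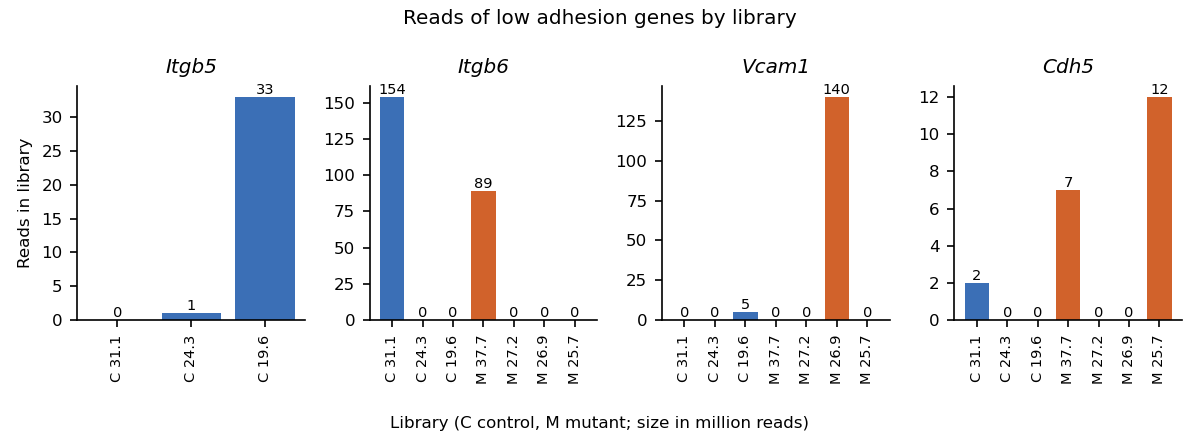
Reads of 4 low members in each library (C, control; M, mutant; the number is the library size in M reads), as resolved from the deposited means; for Itgb5 only the controls could be resolved. Single libraries carry most bars: 33 reads of Itgb5, 154 and 89 reads of Itgb6 and 140 reads of Vcam1.

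Markers of the cell types that carry VCAM1 or VE-cadherin were read beside these values. Of 13 macrophage and monocyte markers with a row, Vcam1 among them, 11 had reads, and their summed level was 411 RPKM in controls and 304 in mutants, nearly all from Lyz2 (406 and 289 RPKM). By gene, 9 were higher in mutants, counting Vcam1, and 2 lower, with a median of 0.33, beside 52.6% higher over all genes with reads. Hmox1 was at 2.03 and 10.4 RPKM and C1qa at 0.212 and 1.38 RPKM, whereas C1qb was lower, at 1.87 and 0.904 RPKM. The defining genes Csf1r and Emr1 had no reads in any library. The mutant library of 26.9 M that held the Vcam1 reads also held 48 reads of Cd14, with 72 in the library of 25.7 M, whereas Cd5l, with 110 reads, and Fcgr1, with 74, were mainly in the library of 27.2 M. Of 10 endothelial markers, Cdh5, Pecam1 and Tek included, 9 had reads, with a sum of 251 RPKM in controls and 307 in mutants, of which Egfl7 gave 173 and 216 RPKM. Stab2 had no reads, Flt4 had 34 reads in 1 control library and none in mutants, and Kdr was at 0.242 and 0.529 RPKM. Of 9 stromal markers 4 had reads, 1 higher and 3 lower in mutants. Sparc was at 1.34 RPKM in controls and 3.9 in mutants, and Pdgfrb at 1.76 and 1.13 RPKM. Col1a2 was at 0.384 and 0.373 RPKM and Cxcl12 at 0.184 and 0.00487 RPKM. The stromal genes Col1a1, Col3a1, Dcn, Lepr and Kitl had no reads. The part of other cells in the Vcam1 and Cdh5 values was not tested.

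A receptor needs both chains, so the levels of partners were set side by side. Of the 20 α/β pairs considered, 13 had reads of both chains. The β1 chain kept a like proportion to its partners: the 11 α chains that pair with β1 summed to 28.5 RPKM in controls and 43.0 in mutants, and Itgb1 was at 1.17 and 1.20 times that sum. For α5β1 and α6β1 the α chain was the lower partner in both groups, and both chains of each pair were higher in the mutant mean. For the β7 receptors the proportion differed: Itgb7 was at 2.11 times the sum of Itga4 and Itgae in controls and at 1.06 times in mutants, so that Itga4 at 6.77 RPKM and Itgb7 at 7.22 RPKM were nearly equal there. Itgb2 was far above its measured partners Itgal, Itgam and Itgax, at 19.2 times their sum in controls and 22.6 times in mutants. For αVβ5 the lower chain was Itgb5 in controls and Itgav in mutants. RPKM compares transcripts and not receptor proteins.

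**Figure D4:**
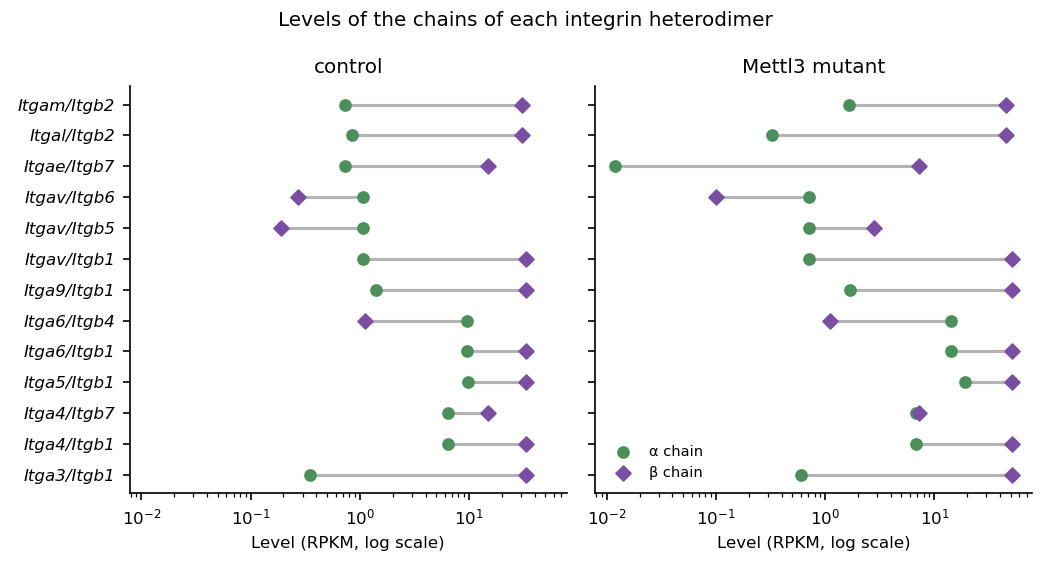
Levels of the α chain (circle) and β chain (diamond) of the 13 heterodimers whose chains both had reads, in RPKM on a log axis, controls at left and mutants at right. The β1 and β2 chains lie above their partners in both panels, and the Itga4/Itgb7 points nearly meet in mutants, at 6.77 and 7.22 RPKM.

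Outside the integrins, Pecam1 was farthest apart on the pseudocount scale; by the ratio of the deposited means the low genes Vcam1 and Cdh5 were farther apart. Pecam1 encodes PECAM1 (CD31), a homophilic adhesion molecule of endothelium, platelets and HSCs, and lies at chr11:106654213-106715281 (GRCm38.p6, minus strand). Its level was 22.0 RPKM in controls and 50.1 in mutants, 2.28-fold higher, about 1824 and 4951 reads per library at the GENCODE length. Of the genes over 10 RPKM, 3.86% were as far apart in either direction, and 3.36% were at least 2-fold higher. Of the endothelial markers above, which include Pecam1, 6 were higher and 3 lower in mutants, beside 52.6% higher over all genes with reads. Among the higher were Egfl7 at 173 and 216 RPKM in controls and mutants, Tek at 14.5 and 22.5 RPKM and Plvap at 0.0206 and 0.541 RPKM. Among the lower were Cldn5 at 7.27 and 0.609 RPKM and Emcn at 33.9 and 16.6 RPKM. Of 11 megakaryocyte and platelet markers 10 had reads, 7 higher and 3 lower, beside the same 52.6%. Their sum was 257 RPKM in controls and 295 in mutants. Selp alone was at 20 and 69.2 RPKM, while Clec1b, at 6.35 and 0.297 RPKM, and Treml1, at 24.1 and 10.2 RPKM, were more than 2-fold lower. The part of such cells in the Pecam1 value was not tested. Selplg, encoding PSGL-1, was at 74.6 and 101 RPKM in controls and mutants, 1.36-fold higher. Cd44, the hyaluronan receptor, was at 14.5 and 16.2 RPKM. Icam2, a ligand of LFA-1 found on resting cells, was level at 146 and 150 RPKM. Icam1, the ligand of LFA-1 that inflammatory signals induce, was at 22.2 and 16.6 RPKM, 1.34-fold lower. Cd47, the signal that restrains phagocytosis, was at 0.870 of its control level.

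The JAM genes, whose products bind each other and leukocyte integrins at cell contacts, were all lower in the mutant mean but to different degrees. Jam2 was at 4.15 RPKM in controls and 2.15 in mutants, 1.93-fold lower. Jam3, which encodes JAM-C, a partner of JAM-B, was at 20.1 and 13.2 RPKM, 1.52-fold lower, and 22.6% of genes over 10 RPKM were as far apart. F11r, which encodes JAM-A, was level at 116 and 114 RPKM, and 96.2% of genes over 10 RPKM were at least as far apart. GENCODE lists an antisense gene over exons of Jam3, Icam1 and Vcam1. Smart-seq2 does not keep the strand, so reads of such a partner cannot be told from those of the member. Exons of Itga4 overlap those of Cerkl on the opposite strand, and Cerkl was at 6.58 and 6.10 RPKM, close to Itga4. Itgav and Itgb4 also overlap a gene of the opposite strand, and Itgam shares exons with the model Gm49368 of its own strand.

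Lists of genes that act with these receptors were read in the same way. Examples beyond the naming rule were picked after their values were seen. The counts of each list stand beside 52.6% higher and 7.14% at least 2-fold apart over all genes with reads. Inside the cell, talin and kindlin switch integrins to the active state and kinases relay the signal. Of 38 such activators and adaptors 34 had reads, 12 of them higher and 22 lower in the mutant mean, with a median of -0.12. The 2 that were 2-fold lower, Tgfb1i1 at 2.38 and 0.525 RPKM and Skap1 at 1.74 and 0.195 RPKM, were low. Abundant genes of the list lay on both sides. Fermt3, the kindlin of blood cells, was at 408 and 307 RPKM in controls and mutants, Tln1, encoding talin, at 39.7 and 35.2 RPKM and Ilk, a kinase-like adaptor, at 133 and 107 RPKM. Rap1b, a GTPase upstream of talin, was at 193 and 250 RPKM, and Cib1, which binds integrin tails, at 161 and 235 RPKM. Ptk2, the focal adhesion kinase gene, was at 2.92 and 5.31 RPKM, a difference of 0.69, while its relative Ptk2b was at 33.9 and 21.8 RPKM.

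Ligand and matrix genes were mostly low, as 22 of 32 had reads and 7 reached 1 RPKM; 16 were higher and 6 lower, with a median of 0.07. Col4a2, a collagen of basement membranes, was 2.72-fold higher at 2.72 RPKM in controls and 7.38 in mutants, and its partner chain Col4a1 was at 3.25 and 5.86 RPKM. Fn1, encoding the fibronectin bound by α5β1, was at 0.0479 and 0.237 RPKM. The list of selectins and of enzymes that build selectin ligands had the highest median, 0.31, with 11 of 15 genes with reads higher and 4 lower. Selp, encoding P-selectin, was at 20 RPKM in controls and 69.2 in mutants. It was the 1 gene of the 15 at least 2-fold apart, close to the 7.14% of all genes with reads. Just under the rule were enzymes that modify PSGL-1 and other mucin-like proteins: Tpst2, a tyrosine sulfotransferase, was at 123 and 240 RPKM and Galnt1, which starts O-glycans, at 18.8 and 35.8 RPKM. St3gal4, a sialyltransferase, was at 36.3 and 64.0 RPKM, and its relative St3gal3 was lower, at 3.58 and 1.45 RPKM. Selp is also one of the megakaryocyte and platelet markers named with Pecam1, and the part of such cells was not tested here either.

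Of 25 genes with reads that hold stem cells in marrow or encode their partners, 10 were higher and 15 lower, with a median of -0.08. P2ry14, a receptor for nucleotide sugars, was at 8.31 and 18.2 RPKM in controls and mutants, the 1 gene of the list at least 2-fold higher. Kit was at 67.4 and 39.9 RPKM. Esam, an endothelial adhesion molecule that marks HSCs, was at 190 and 224 RPKM. Of 21 catenins and other junction genes with reads, 10 were higher and 11 lower, with a median of -0.02. Ctnnd1, encoding the cadherin-binding p120 catenin, was the gene farthest apart among those over 5 RPKM, at 6.72 and 3.73 RPKM. Pvr, below 5 RPKM, was the 1 gene at least 2-fold apart, at 0.414 and 1.83 RPKM. Of the integrin chains outside the set, Itga2b was at 19.7 and 22.4 RPKM and its partner Itgb3 at 3.14 and 3.89 RPKM, and Itga11, Itgad, Itgb2l and Itgbl1 had no reads.

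**Figure D5:**
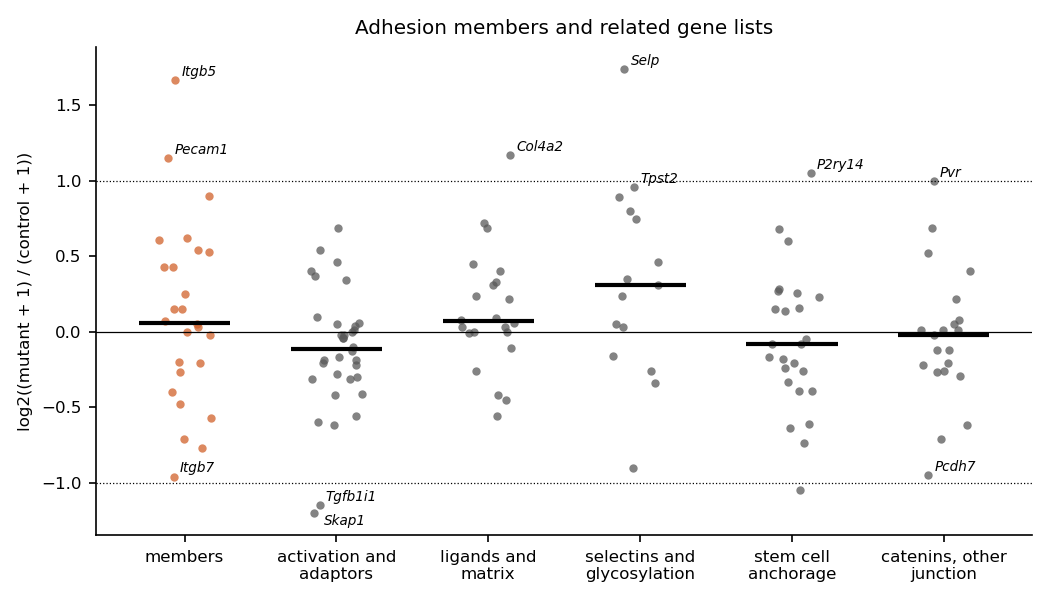
Difference between group means, as log2((mutant + 1) / (control + 1)), for the members with reads and for 5 lists of related genes; each point is a gene, thick lines are medians and dotted lines mark 2-fold. The medians run from -0.12 for activation and adaptor genes to 0.31 for selectins and glycosylation, and most genes of each list lie between the dotted lines.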

How the data were processed

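The members and the gene lists were chosen with earlier results of these data known. The deposited RPKM are the authors' group means, with 1 column for controls and 1 for mutants, per the file headers, and no column per library. Samples were therefore grouped by the labels, and no test could be run. The submitters' processing notes name mm10, Picard and edgeR without their roles. For the aligner, the gene models and the averaging, the sources used here give nothing. Members were matched by symbol, and all 35 gene identifiers were in RefSeq (GRCm38.p6).

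The deposited RPKM hold an offset, 0.0414 RPKM for 1 kb in controls and 0.0349 in mutants, read as 1 read added per library. Genes at the offset in both groups (8499) count as genes without reads. The most frequent small steps above the offset, 3 in controls and 4 in mutants, summed to it within 5.8e-05 of 41.4 and 1.1e-05 of 34.9 (RPKM times bases). Of 220 low control and 487 low mutant genes, 219 (99.5%) and 479 (98.4%) were given by 1 set of whole reads. This reading was tested on simulated data, where 39 of 40 low genes were read right, 0 wrong and 1 had several solutions. Those genes had fewer reads in a group than Vcam1 in mutants or Itgb6 in controls. Their lengths were searched over a narrower range than that of Vcam1. The reading of Itgb5 at annotated lengths was not simulated. A member was resolved when 1 length, up to its GENCODE M21 exons, gave whole reads in both groups and fewer than 0.01 chance solutions were computed; Itgb6 met this for solutions with 1 library per group only. For Itgb5 only annotated lengths were tried and only the controls were resolved. About-values of reads use GENCODE lengths.

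Named genes of the lists were those of at least 5 RPKM and 2-fold apart, at most 4 per list, or the 1 farthest apart; other genes are examples. One gene that the rule names is not reported here. Alternatives were pseudocounts, 2 scalings and filters on low values. Python 3.11.15, pandas 2.3.3, numpy 2.4.6 and matplotlib 3.10.9 were used.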

Additional observations from a re-analysis of the deposited data

How the results depend on the processing

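The number of members at least 2-fold apart depended on how low genes were treated. It was 2 with the pseudocount of 1 RPKM and 7 with 0.1 RPKM (4 higher and 3 lower, beside 19.6% of all genes with reads). Without a pseudocount it was 9 (5 higher and 4 lower), beside 19.0% of the genes with reads in both groups, as all 26 members had. Over all genes with reads in at least 1 group that share was 25.1%. With a minimum of 5 RPKM it was 1, Pecam1, and 9 of 14 members were higher, because fewer members remained; the 1.5-fold rule gave 8. Under both scalings and with a minimum of 1 RPKM it stayed at 2, and so it did without Itgb6 and Vcam1. As resolved, and with less certainty for Itgb6, the reads of these genes came from 1 library in each group. Leaving them out was a setting chosen after seeing the data. The median difference of the members ran from 0.05 to 0.12 over these settings. Itgb4, level in both groups, changed sign under division of mutant values by the median ratio; no other member did. The order of members depended on the pseudocount: without one, Itgae (-5.94) was farther apart than Itgb5 (3.89), and Vcam1 (3.40) and Cdh5 (1.65) farther than Pecam1 (1.19). Mettl3 ran from -2.37 to -2.25. No paired analysis was possible because each group is 1 column of means, and leaving out single libraries could not be run for the same reason, apart from the few low members whose reads were resolved by library. Depth limits the lowest members most: as resolved, no library held more than 154 reads of Cdh5, Vcam1 or Itgb6.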
